A study of Homo sapiens with 6 samples.

Results

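The ID genes ID1, ID2, ID3 and ID4 and the E-protein genes TCF3, TCF4 and TCF12 were followed in BL-2 cells, an established line from a Burkitt lymphoma, with and without lipopolysaccharide (LPS), the endotoxin of Gram-negative bacteria. A probe set is a group of short probes against 1 transcript or several similar ones. The platform annotation gave exactly 1 gene symbol, equal to 1 of the 7 names above, for 35 of the 54613 tested probe sets. Of these, 9 belonged to ID genes and 26 to E-protein genes, and 1 further probe set annotated to ID2 together with another gene was left out. The 7 genes were chosen by their family after ID1, ID3 and ID4 had been seen among the largest differences between LPS and control. Their levels and their LPS differences are therefore given as a description, without p-values.

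Untreated BL-2 cells (3 control arrays) were compared with BL-2 cells after 6 h of LPS (3 LPS arrays). No other agent or genotype is named. RNA was measured, not protein. All samples are of 1 cell line, and the labels do not say whether the replicates were separate cultures, so the spread between them may be partly technical. In the bulk RNA of such samples, fewer cells carrying a transcript and less of it per cell cannot be told apart.

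ID proteins are helix-loop-helix proteins that lack the basic region with which related factors touch DNA. They pair with E proteins, the broadly expressed basic helix-loop-helix factors, and keep them from binding the E-box sequence, so the balance between both families sets E-protein activity. E proteins drive early B cell development and the germinal centre programme, and Burkitt lymphoma is known for mutations that disable ID3 or free TCF3 from it. ID genes are classical targets of bone morphogenetic protein (BMP) signalling, which acts through SMAD1, SMAD5 and SMAD9 together with SMAD4.

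Because the 4 ID genes were all lower after LPS, the 120 bases before each of their transcription starts are shown, 5′ to 3′ on the gene's strand, from the RefSeq promoter table of assembly GRCh38.p14. Capitals mark exact matches to TATAAA, the core of the TATA box, or to CCAAT, on either strand.
ID1 (chr20:31605169-31605288, plus strand): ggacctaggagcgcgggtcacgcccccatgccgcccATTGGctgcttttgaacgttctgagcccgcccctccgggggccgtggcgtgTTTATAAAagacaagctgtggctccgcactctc
ID2 (chr2:8681936-8682055, plus strand): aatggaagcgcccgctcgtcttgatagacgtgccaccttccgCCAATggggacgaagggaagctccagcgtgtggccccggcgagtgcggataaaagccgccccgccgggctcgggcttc
ID3 (chr1:23559502-23559621, minus strand): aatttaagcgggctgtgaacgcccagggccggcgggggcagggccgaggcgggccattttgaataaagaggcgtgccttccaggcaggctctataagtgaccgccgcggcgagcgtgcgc
ID4 (chr6:19837250-19837369, plus strand): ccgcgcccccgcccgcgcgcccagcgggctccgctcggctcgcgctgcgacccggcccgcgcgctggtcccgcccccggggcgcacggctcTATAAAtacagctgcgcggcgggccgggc
In the 250 bases before the start, TATAAA was found 31 bases upstream in ID1 and 29 bases upstream in ID4, and not in ID2, ID3 or TCF3. It occurred in 10.7% of all 35116 promoters of the table. CCAAT was found in ID1, ID2 and ID4, at 84, 78 and 220 bases for the match nearest the start, and in 32% of all promoters. The E-box CANNTG, the site that E proteins bind, lay 21 bases upstream in ID4, inside the stretch shown, and 205 bases upstream in ID2. It was not found in ID1, ID3 or TCF3 and occurred in 61.8% of all promoters. Of 2 short motifs bound by SMAD proteins, GGCGCC was in none of the 4 ID windows (16.4% of all promoters) and GTCTG was in those of ID3 and ID4 (38% of all promoters). The E-box and SMAD motifs were searched on both strands like the others. TCF4 and TCF12 have 10 and 5 promoters in the table, and the probe sets do not tell which of them was used. A match describes the letters only.

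The values are 1 deposited level per probe set and array, taken to be on the log2 scale from their range. Each probe set has its own brightness, so levels of different probe sets are set against each other only as a rough guide. The arrays had medians from 6.42 to 6.47, and correlations between them ran from 0.992 to 0.997. By the level of 18 added hybridisation control probe sets, they fell into 2 array sets, called A (control 1, LPS 1 and LPS 2) and B (control 2, control 3 and LPS 3). Set A thus holds 1 control array and set B 1 LPS array, so differences within a set rest on few arrays. The line's identity was checked with 8 measured B cell markers, all above the median level of all probe sets, with control levels from 9.05 to 13.05. Of monocyte markers 1 of 7 lay above that median, of T and NK cell markers 1 of 7, of fibroblast and epithelial markers 4 of 8 and of erythroid and platelet markers 3 of 5, the highest being COL1A1 at 7.99. By brightest probe set, 12654 of all 19775 genes lay above that median. None of these markers passed the test between LPS and control, and 5 B cell markers and 0 of the others had an unadjusted p under 0.05 in limma, as did 9.56% of all genes. The B cell markers as a list had a mean level from 10.49 to 10.58 on the control arrays and from 10.32 to 10.39 on the LPS arrays, with 7 of 8 below 0 and a median difference of -0.26. Over all genes the median difference was 0.0016. Whether that shift has a part in the values given here was not tested. The mean level of the other 4 lists overlapped between the groups, at 6.15 to 6.20 and 6.14 to 6.19 for the monocyte markers and 6.50 to 6.58 and 6.54 to 6.60 for the fibroblast and epithelial markers. For T and NK cell markers the ranges were 6.27 to 6.38 and 6.30 to 6.35, and for erythroid and platelet markers 6.39 to 6.46 and 6.34 to 6.47.

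All 4 ID genes were lower in LPS than in control cells at their brightest probe set, by 25.9% to 73.2%, while TCF3 and TCF12 differed by 0.01 or less on the log2 scale and TCF4 by 0.12. Of the 35 probe sets, 4 were called lower by the limma fit at an adjusted p under 0.05, 1 of ID1, 1 of ID3 and 2 of ID4, where 0.134% of all tested probe sets were called lower. With 1 array left out in turn, the ID1 call held in 6 of 6 fits and the ID3 call in only 2. The ID4 calls held in 4 (209291_at) and 5 (209292_at) of the 6 fits. In 10 of the 35 all LPS values lay below all control values, against 6.38% of all tested probe sets. In 1 they lay above, and the share of all probe sets in that direction was not computed. These counts, the calls under left-out arrays and the ranks below come from the contrast that chose the genes. Nothing is read from them. Among 19775 genes ranked by the size of the difference, ID1 stood at 1, ID3 at 8, ID4 at 16 and ID2 at 122. TCF4 stood at 4065, TCF12 at 17847 and TCF3 at 19517.

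**Figure D1:**
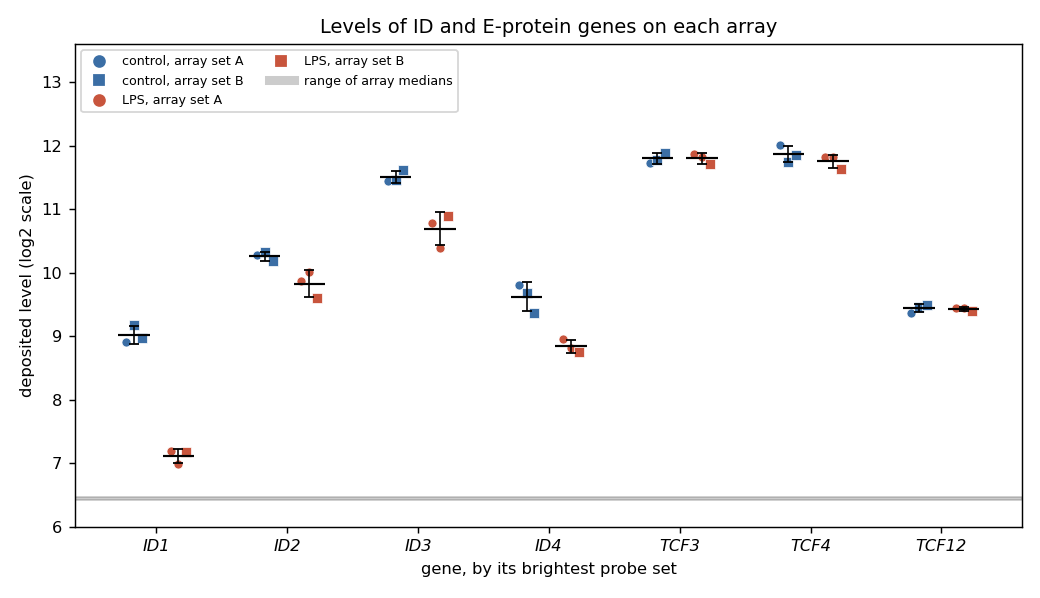
Deposited level (log2 scale) of each gene by its brightest probe set on each of the 6 arrays; points are arrays, circles array set A and squares array set B, horizontal lines are means and bars the SD (n = 3). The ID1 points separate from 9.02 to 7.12 on average, ID2, ID3 and ID4 are also apart, and the points of TCF3, TCF4 and TCF12 overlap; the grey band is the range of array medians.

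ID1, which acts mainly in stem and progenitor cells and in the vessel wall, stood at 8.91, 9.18 and 8.97 on control arrays 1 to 3 and at 7.19, 6.99 and 7.18 on LPS arrays 1 to 3. All control values lay far above all LPS values. The means were 9.02 ± 0.15 and 7.12 ± 0.11 (SD, n = 3), a difference of -1.90 (SE 0.090, 95% interval -2.09 to -1.71), so the LPS level was 73.2% lower. It was -1.82 on the set A arrays and -1.90 on those of set B. ID1 has this 1 probe set, 208937_s_at, on the array, and leaving out each array in turn gave -1.96 to -1.82.

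ID3, the family member most closely tied to B cells and to Burkitt lymphoma, stood at 11.45, 11.46 and 11.61 in control and at 10.79, 10.40 and 10.90 in LPS cells. The groups did not overlap, and LPS 2 was the lowest array. The difference was -0.81 (SE 0.12, 95% interval -1.07 to -0.55), a level 43.0% lower, with -0.85 on the set A arrays and -0.64 on those of set B. ID3 also has 1 probe set, 207826_s_at. Its difference was -0.91 to -0.66 without each array in turn, the smallest being that without LPS 2.

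ID4, best known from the nervous system and the germ line, has 5 probe sets, and all lay below 0. At the brightest, 209291_at, the values were 9.81, 9.68 and 9.37 in control and 8.96, 8.82 and 8.75 in LPS cells, without overlap. The difference was -0.78 (SE 0.11, 95% interval -1.01 to -0.54), with -0.92 on the set A arrays and -0.77 on those of set B. The next by level, 209293_x_at, whose suffix marks possible cross-hybridisation, gave -0.40 from 8.13 in control cells. Probe set 209292_at gave -0.61 from 7.55 and 226933_s_at gave -0.37 from 6.94, both without overlap. The dimmest, 229386_at, gave -0.13 from 6.37, under the array medians, and its groups overlapped. The ID4 probe sets thus differed in size but not in sign, and their mean gave -0.46. Without each array in turn 209291_at gave -0.90 to -0.68.

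ID2, which limits B cell and directs innate lymphoid development, differed least of the 4. Its brightest probe set, 201565_s_at, stood at 10.28, 10.32 and 10.18 in control and at 9.87, 10.01 and 9.60 in LPS cells. All LPS values lay under all control values, the closest pair being control 3 and LPS 2. The difference was -0.43 (SE 0.11, 95% interval -0.66 to -0.20), with -0.34 on the set A arrays and -0.65 on those of set B. At the second probe set, 201566_x_at, the difference was -0.24 (SE 0.097) and LPS 2, at 8.62, lay above control 3, at 8.56. The suffixes of both ID2 probe sets were taken as marks of possible cross-hybridisation. So were those of the only ID1 and ID3 probe sets and of 226933_s_at of ID4. With array set as a block in the fit, the brightest ID2 probe set gave -0.49.

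**Figure D2:**
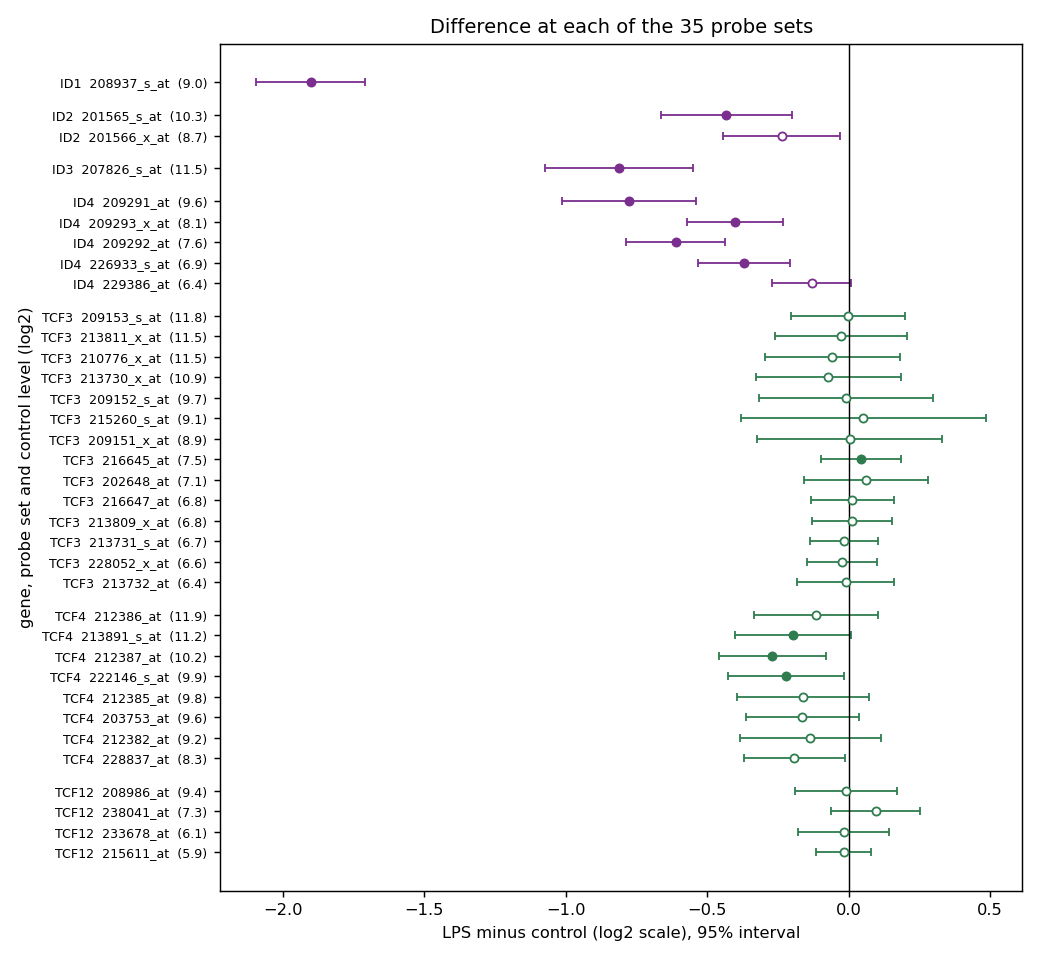
Difference LPS minus control (log2 scale) with its 95% interval from the limma fit for each of the 35 probe sets, ordered within a gene by control level, which is given in brackets; filled points mark probe sets whose groups do not overlap, and open points those whose groups do. The 9 ID probe sets lie between -1.90 and -0.13 and the 26 E-protein probe sets between -0.27 and 0.10.

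TCF3, which encodes the E proteins E12 and E47 by alternative splicing, had 14 probe sets, of which 8 lay below 0 and 6 above, from -0.07 to 0.06. At the brightest, 209153_s_at, the control values were 11.73, 11.78 and 11.89 and the LPS values 11.86, 11.83 and 11.70, with complete overlap. The difference was -0.0013 with a 95% interval from -0.20 to 0.20. That interval leaves room for a difference of up to about 0.20 either way. Its value was 0.11 on the set A arrays and -0.13 on those of set B. In TCF3 probe set 216645_at, at a control level of 7.54, all LPS values lay above all control values, by 0.04 on average.

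TCF12, which encodes the E protein HEB, had 4 probe sets. The brightest, 208986_at, stood at 9.37, 9.45 and 9.49 in control and at 9.45, 9.45 and 9.39 in LPS cells. The difference was -0.0095 with a 95% interval from -0.19 to 0.17. The groups overlapped in all 4 probe sets, whose differences ran from -0.02 to 0.10. A pair of them, with control levels of 6.06 and 5.89, lay under the array medians.

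TCF4, which encodes the E protein E2-2, had 8 probe sets, and all 8 lay below 0, from -0.27 to -0.12, with a median of -0.18. The brightest, 212386_at, stood at 12.01, 11.75 and 11.84 in control and at 11.81, 11.81 and 11.63 in LPS cells, and its groups overlapped. The difference was -0.12 with a 95% interval from -0.33 to 0.10. At 212387_at it was -0.27 with an interval from -0.46 to -0.08, and the control values of 10.30, 10.18 and 10.26 all lay above the LPS values of 10.03, 9.94 and 9.95. The groups were also apart in 213891_s_at (-0.20) and 222146_s_at (-0.22). With array set as a block the 8 differences ran from -0.29 to -0.16. The 8 probe sets share the arrays and the transcript, so their common sign is not 8 observations.

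A separate question, not used in choosing the genes, is whether they differed between the array sets. With LPS in the fit, limma called 4 of the 35 probe sets different between sets (adjusted p under 0.05), 3 of TCF3 and 1 of TCF4, where 4.54% of all tested probe sets were called. None of the 9 ID probe sets was among them, with adjusted p from 0.213 to 0.958. For so few probe sets that is near the share of all, and nothing is read from it. The ID differences between sets ran from -0.21 (209291_at of ID4) to 0.20 (ID3). TCF3 probe set 215260_s_at stood at 9.63, 9.60 and 9.24 on the arrays of set A (control 1, LPS 1, LPS 2) and at 8.78, 9.04 and 8.77 on those of set B (control 2, control 3, LPS 3). Set B minus set A was -0.68 (SE 0.093, adjusted p = 4.25e-05), and the adjusted p was at most 0.0179 without any 1 array. TCF3 probe set 209151_x_at was lower in set B, at -0.44 (adjusted p = 0.00461), though not without control 1 (adjusted p = 0.227) or LPS 3 (adjusted p = 0.0877). Probe set 210776_x_at of TCF3 was higher in set B by 0.24 (adjusted p = 0.0439), passing again only without control 2 among the 6 arrays left out in turn (adjusted p = 0.0177 there, and 0.057 to 0.423 otherwise). TCF4 probe set 212382_at was lower in set B, at -0.29 (adjusted p = 0.0486), and on leaving out arrays passed only without LPS 2 (adjusted p = 0.00788, otherwise 0.0675 to 0.617). The brightest TCF3 probe set gave -0.02 between the sets. Probe sets of TCF3 thus lay on both sides of 0 between the sets. The TCF3 differences after LPS with array set as a block ran from -0.17 to 0.05.

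**Figure D3:**
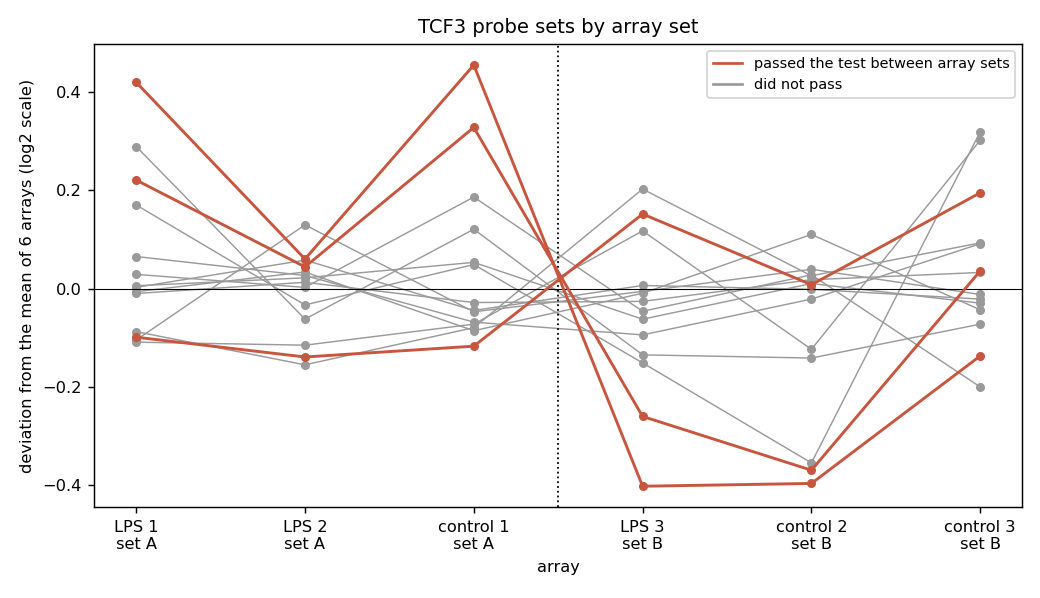
Each line is 1 of the 14 TCF3 probe sets, plotted as the deviation of each array from that probe set's mean over the 6 arrays (log2 scale), with the arrays of set A left of the dotted line and those of set B right of it. Of the 3 lines that passed the test between sets, 2 lie lower on average in set B and 1 lies higher there, and the remaining 11 lines did not pass.

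Over the 6 arrays the brightest probe sets of ID1 and ID3 had a Pearson r of 0.94, ID1 and ID4 one of 0.93 and ID1 and ID2 one of 0.84. These values contain the difference between the groups that chose the genes. For the deviations from the group means, which leave it out, r was 0.48, 0.07 and -0.28 for the same pairs. It was 0.43 between ID2 and ID4, -0.30 between ID3 and ID4 and -0.90 between ID2 and ID3. On LPS 2, ID2 was 0.19 above its group mean and ID3 0.30 below it, and on LPS 3 ID2 was 0.22 below and ID3 0.20 above. Within the groups r thus took both signs among the 6 pairs of ID genes. All the points share the same 6 arrays, and no test was made. TCF3 and TCF12 had an r of 0.88 over the 6 arrays and of 0.89 for the deviations. For the deviations, TCF3 and TCF4 had 0.21 and TCF4 and TCF12 -0.24. Pairs of an ID gene with an E-protein gene ran from -0.73 (ID1 and TCF4) to 0.53 (ID2 and TCF4). The TCF3 and TCF12 deviations were small, at most 0.09 from the group mean in size.

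Among 12653 other genes above the median level, the patterns over the 6 arrays most like that of ID1 were those of SMIM14 (r = 0.998), DEPTOR, an inhibitor of the kinase mTOR (0.995), the potassium channel gene KCNN3 (0.994), CAB39L (0.993) and DNAJC12 (0.991). Their differences after LPS were much smaller than that of ID1, at -0.24, -0.48, -0.46, -0.80 and -0.39 in the same order. DEPTOR went from 9.86, 9.99 and 9.92 in control to 9.47, 9.38 and 9.48 in LPS cells. For deviations from the group means the closest were CCDC126, KIR2DL3, NBR2, ZDHHC19 and DCTN2, with r from 0.990 to 0.995 and differences after LPS from -0.12 to 0.05. With 6 arrays and this many genes such values are only a description.

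The genes around the ID and E proteins were then read from 8 lists drawn up from general knowledge, with 104 of 114 genes measured. By their brightest probe sets 1 of the 104 passed the limma test, SMAD1, which fell, where 0.389% of all genes passed in either direction. The median difference of the 104 was 0.0036, beside 0.0016 for all genes, and 18 of the 104 had an unadjusted p under 0.05, where 9.56% of all genes did. By list, in the order followed here, these were 3, 2, 1, 0, 0, 1, 8 and 3 genes. Over the 4 ID genes the median was -0.79 and over the 3 E-protein genes -0.0095.

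Among BMP receptors and the SMAD proteins they act on, 1 of 10 fell and 0 rose, with a median of -0.04. SMAD1, 1 of the SMAD proteins that BMP receptors activate, stood at 9.92, 9.71 and 9.64 in control and at 9.27, 9.26 and 8.95 in LPS cells. The groups did not overlap, and SMAD1 fell, with a difference of -0.59 (SE 0.11, adjusted p = 0.039) that left the level 33.7% lower, with -0.66 on the set A arrays and -0.72 on those of set B. A second bright SMAD1 probe set, 227798_at, stood at 9.69, 9.79 and 9.73 in control and at 9.12, 9.17 and 9.14 in LPS cells, and also fell, at -0.59 (SE 0.082, adjusted p = 0.00846). The third SMAD1 probe set, dim at 6.24, gave -0.09 (adjusted p = 0.826). The brightest lost its call without control 2, control 3, LPS 1, LPS 2 and LPS 3 (adjusted p = 0.139, 0.136, 0.103, 0.165 and 0.0897), at differences of -0.65 to -0.49, and kept it without control 1. The second lost it without control 3, LPS 1 and LPS 2 (adjusted p = 0.0861, 0.0573 and 0.079), at differences from -0.60 to -0.58. SMAD9, of the same class, gave -0.30 (adjusted p = 0.286), with 9.66, 9.63 and 9.52 against 9.41, 9.25 and 9.27. With array set as a block this SMAD9 probe set passed, at -0.32 (adjusted p = 0.036). The other SMAD9 probe set, with a control level of 6.70, gave -0.05 (adjusted p = 0.916), and its groups overlapped. SMAD5 gave -0.0066, the shared partner SMAD4 0.08 and the receptor gene ACVRL1 -0.21 (adjusted p = 0.449).

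Among genes that BMP and SMAD signalling induces or that feed back on it, 0 of 16 passed in either direction, with a median of 0.03. The inhibitory SMAD6, itself a BMP target, gave -0.14 (adjusted p = 0.597), while PMEPA1 and SKI, which dampen SMAD signals, gave 0.24 and 0.18 (adjusted p = 0.222 and 0.681). The other probe sets gave smaller values, 0.10 and 0.02 for PMEPA1 and 0.02 and 0.0029 for SKI. The inhibitory SMAD7 gave -0.01 with values between 7.38 and 8.03 in no order by group. Among other regulators of ID transcription 0 of 9 passed, 8 lay below 0 and the median was -0.05. SRF gave 0.19, EGR1, an activator of ID genes in lymphocytes, -0.14 and FLI1 -0.11 (adjusted p = 0.532, 0.746 and 0.817). EGR1 was at -0.39 on the set A arrays and -0.01 on those of set B. The set A value rests on control 1, at 6.91, where control 2 and control 3 stood at 6.50 and 6.56. The other EGR1 probe sets gave -0.16 and -0.02. In the group that governs the stability of ID proteins 0 of 7 passed. USP1, which removes ubiquitin from ID proteins, gave 0.03, and COPS5, CDC20 and CDC27 gave -0.10, 0.07 and 0.07 (adjusted p = 0.873 to 0.910).

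**Figure D4:**
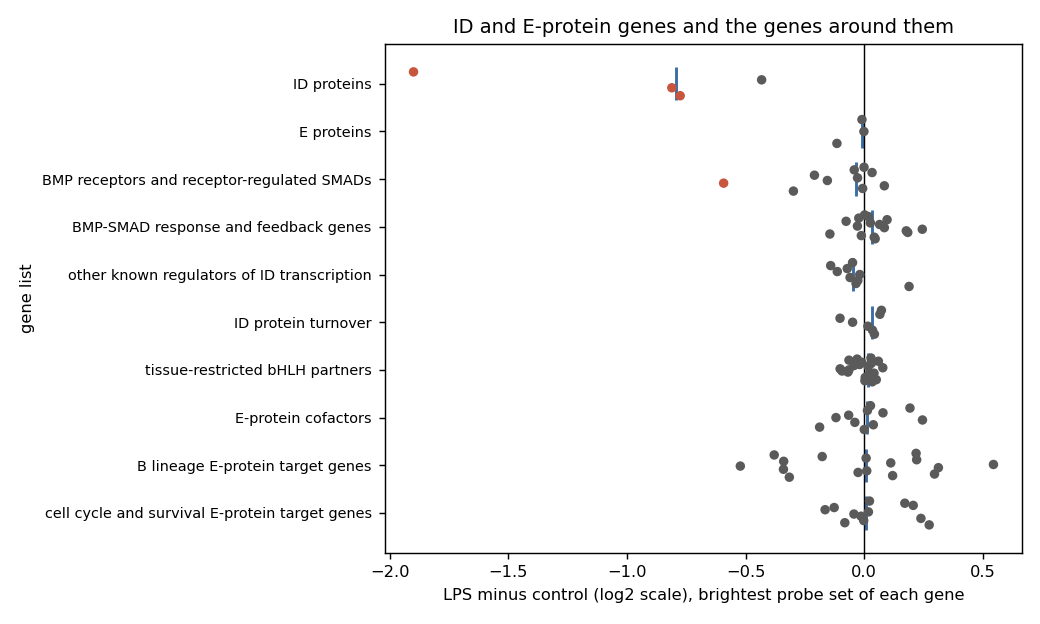
Difference LPS minus control (log2 scale) of each gene by its brightest probe set, grouped by list; each point is a gene, the blue line the list's median, and red points passed the limma test. The ID genes lie from -1.90 to -0.43, SMAD1 is the 1 red point outside them, and the medians of the other lists lie between -0.05 and 0.03.

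Of the tissue-restricted helix-loop-helix partners of E proteins 0 of 23 passed, and 7 of 23 lay above the median level of all probe sets. LYL1, a partner in blood cells, was the brightest measured at 8.20 and gave 0.03. The 3 with the smallest p were NEUROG2, MYOG and MYOD1, at -0.09, -0.10 and 0.08 (adjusted p = 0.693 to 0.821), all with control levels of 6.66 or less. Of the cofactors of E proteins 0 of 11 passed. The acetyltransferase gene KAT2B gave 0.25, the corepressor gene CBFA2T3 0.19 and the acetyltransferase gene KAT2A -0.12 (adjusted p = 0.453, 0.66 and 0.822).

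Among target genes of E proteins in the B lineage 0 of 16 passed, with a median of 0.0094 and differences from -0.52 to 0.54, the widest range of these 8 lists. Of the 16, 8 had an unadjusted p under 0.05 (9.56% of all genes), and 9 lay above 0. IGLL1, a surrogate light chain gene, stood at 9.22, 9.17 and 9.06 in control and at 9.94, 9.59 and 9.57 in LPS cells, a difference of 0.54 (adjusted p = 0.0541). IGLL1 resembles the lambda light chain genes, and cross-hybridisation was not tested. IL7R, the receptor of interleukin 7, stood at 10.24, 10.49 and 10.44 in control and at 9.79, 9.75 and 10.06 in LPS cells, a difference of -0.52 (adjusted p = 0.0682). The other IL7R probe set gave -0.35 (adjusted p = 0.191). CD79A, a signalling chain of the B cell receptor, gave -0.38 (adjusted p = 0.133), from 10.73 to 10.35, and its other probe set gave -0.31 (adjusted p = 0.330). In these 3 genes the groups did not overlap and the signs differed. With array set as a block all 3 passed (adjusted p = 0.00255, 0.00155 and 0.0103), at 0.50, -0.44 and -0.35. EBF1, POU2AF1 and VPREB3, named here after their values were seen, also passed that fit and gave -0.34, -0.34 and -0.32 without the block. Left-out arrays also changed calls: IGLL1 passed without control 1 (adjusted p = 0.0279) and without LPS 3 (adjusted p = 0.0499), and IL7R did in the same cases (adjusted p = 0.0187 and 0.0315). The 7 of 8 B cell markers below 0 noted above include CD79A and CD79B, which are also in this list.

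Among cell cycle and survival genes that E proteins act on 0 of 12 passed, with a median of 0.0078. GFI1, a transcriptional repressor, gave 0.24, PTPN6, the phosphatase SHP-1 that damps B cell receptor signals, 0.27 and the CDK inhibitor CDKN1C -0.16 (adjusted p = 0.327, 0.597 and 0.611). This CDKN1C probe set, dim at 6.48, was at 0.01 on the set A arrays and -0.35 on those of set B. The other CDKN1C probe sets, also dim, gave -0.31 (213348_at, adjusted p = 0.214, groups apart) to -0.08. PTPN6 was at -0.02 on the set A arrays and 0.32 on those of set B, and without control 1 it passed at 0.46 (adjusted p = 0.0175). CCND3, a D-type cyclin driven by TCF3 in Burkitt lymphoma, gave 0.17 (adjusted p = 0.746), with 10.93, 10.64 and 10.81 in control and 11.11, 10.89 and 10.89 in LPS cells. The CDK inhibitor CDKN1A gave 0.21 (adjusted p = 0.702).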

How the data were processed

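RNA of 3 control and 3 LPS samples (6 h) was hybridised to 1 Affymetrix array per sample, per the labels. The authors deposited 1 value per probe set and array, taken here as log2 because all lie between 5.46 and 14.81; background correction, summary and normalisation are not given in the sources used here. Values near the floor may be compressed. The 62 control probe sets were left out. Symbols came from the platform annotation, updated through gene identifiers with RefSeq (GRCh38.p14); a gene was represented by its brightest probe set with 1 symbol. Differences were fitted in R 4.3.3 with limma 3.58.1 (group as the only term, intensity trend, Benjamini-Hochberg over 54613 probe sets, threshold 0.05), and the steps were tested on simulated data. The median SE was 0.063, and the number of arrays limits the precision. Promoter sequences came from the RefSeq table, searched by exact match.

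The genes, lists and tests were chosen with earlier results of these data known. Named were the 7 genes with every probe set, per list the genes that passed and at least the 3 with the smallest p, and the 5 genes most like ID1 by each of 2 correlations; others were picked after their values were seen, among them SMAD4, SMAD5, SMAD7, USP1, LYL1, CCND3 and CDKN1A. Alternatives were blocks on replicate number and array set, other normalisations, filters, array weights, other probe set choices and leaving out each array.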

Additional observations from a re-analysis of the deposited data

How the results depend on the processing

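Under all 12 or 13 alternatives the differences of ID1, ID2, ID3, ID4 and TCF4 kept their sign. For the ID genes, whose groups do not overlap at the brightest probe set, leaving out an array could not have changed it. Those of TCF3 and TCF12 changed sign in 3 of 13 alternatives each, between -0.04 and 0.05 and between -0.05 and 0.02. All moved by less than the pooled SD of their arrays, except ID4 by the mean over its probe sets (-0.46). The suffixes _x_at and _s_at were both taken as marks of possible cross-hybridisation. Without such probe sets ID1, ID2 and ID3 have no value, since all of theirs carry 1 of these suffixes. The number of probe sets called, 144, was 498 with a replicate block, 734 with an array set block, 292 with quantile normalisation, 309 with array weights, and 10 to 374 without each array in turn (374 without control 1, 46 without control 2, 14 without control 3, 44 without LPS 1, 10 without LPS 2). Of the surrounding genes 1 passed; this was 5 with the replicate block (SMAD1, CD79A, IGLL1, IL7R, VPREB3), 8 with the array set block, 5 with quantile normalisation (POU2AF1 in place of VPREB3), 4 with array weights, 3 without the intensity trend, 2 with median centring, with the mean over probe sets and without cross-hybridising probe sets (SMAD1 and IGLL1 in each), and 0 to 4 without each array in turn (4 without control 1, 2 without LPS 3, 0 otherwise). Why was not tested. Whether same-numbered arrays belong together is not given in the labels. Their deviations correlated at 0.44, -0.04 and 0.23 for numbers 1, 2 and 3. The best match of control 1 was LPS 1, and that of control 2 and control 3 was LPS 3. Of 350 alternative values of the surrounding genes named, 322 kept side and sign, 23 newly passed, 5 (all SMAD1) no longer did, and 0 reversed. Dim probe sets, such as those under the array medians, limit what can be seen at the dimmer TCF12 probe sets and of the helix-loop-helix partners. The brightest TCF12 probe set, at a control level of 9.44, is not among them.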
